A study of Larimichthys crocea with 2 samples.

Results

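The genes described here encode the nuclear pore complex and the machinery that moves proteins and RNA through it in muscle of a marine food fish, the large yellow croaker (Larimichthys crocea). They were chosen by protein name in the deposited annotation: names that open with nuclear pore, nucleoporin, importin, exportin, transportin, GTP-binding nuclear protein Ran, Ran- (as in Ran-binding protein), THO complex, nuclear RNA export or nuclear transport factor, or that hold Nup followed by a number. The rule found 72 genes under 62 protein names among 22321 annotated genes. Muscle RNA was sequenced from fish without treatment (the control library) and from fish fasted for 21 days (the fasted library). Neither group carries any other labelled treatment, and the sources used here give neither the age of the fish, nor the muscle taken, nor the number of fish per library. There was 1 library per group and no replicates, so no test between conditions was possible and every difference describes these libraries only.

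The nuclear pore is a ring of proteins, the nucleoporins, set into the nuclear envelope. Its scaffold is built of the Y complex and an inner ring, and its channel is lined by nucleoporins rich in phenylalanine-glycine repeats, through which carriers pass. Importins bind cargo in the cytoplasm and release it in the nucleus when the small GTPase Ran binds them, exportins carry cargo out together with Ran, and nuclear transport factor 2 brings Ran back. Messenger RNA leaves by another receptor, NXF1, loaded by the TREX complex, of which THO is the core. Muscle fibres have many nuclei, and each depends on this traffic.

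The control library held 27519918 reads assigned to genes and the fasted library 26593839. The 20 most abundant genes took 59.1% of the control reads and 43.9% of the fasted reads. Genes entered if their RPKM (reads per kilobase of gene model, scaled to library size) averaged at least 1 over both libraries. Across these 11417 genes the median gene was 1.40-fold higher in the fasted library as deposited. Ratios are therefore given as log2 of fasted over control RPKM, with 0.5 RPKM added to each, relative to that median of 0.48, and a gene is called at 2-fold from it. The 22 skeletal muscle marker genes that entered belong to a list with a summed level of 416505 RPKM (control) and 226247 RPKM (fasted), so both libraries held muscle transcripts. Of the 22, 12 were called lower and 1 higher, where 16.6% and 16.1% of all genes were. They did not move alike, with 15 below the median gene and 7 above. Parvalbumin gene3887 was at 147098 and 40557 RPKM, and fast myosin heavy chain gene13427 at 4417 and 9359 RPKM. All 8 measured haemoglobin genes were called lower, with a summed level for their list of 568 and 44.7 RPKM, and so were all 3 measured collagen I genes, at 587 and 66.8 RPKM. Of 9 measured keratin genes 6 were called lower, at 1885 and 434 RPKM for that list, and the only adipocyte marker was at 0 in both. What these shifts in other cell types contribute to the ratios below was not tested. In whole muscle, fewer cells of a type and less RNA per cell cannot be told apart.

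Most transport genes lay above the median gene in the fasted library. Of the 72 genes, 68 passed the filter on low values. Of those 68, 16 were called higher (23.5%) against a background of 16.1% of all genes tested, and 1 was called lower against a background of 16.6%. The median ratio was 0.45, where that of all genes is 0 by construction, and 53 of the 68 lay above 0. Under upper-quartile scaling 41 did, where the median of all genes was itself -0.24. The share of all genes above 0 under that scaling was not computed. With median centring the ratios ran from -1.23 for transportin-1 to 2.84 for importin-5, with quartiles of 0.04 and 0.93. On the RPKM as deposited, without centring, 31 were at least 2-fold higher against a background of 29.7%, and 0 were at least 2-fold lower against a background of 8.88%. Under upper-quartile scaling 9 (13.2%) were at least 2-fold higher against a background of 11.7%, and 1 was lower against a background of 22.4%, so the share of higher calls was then close to that of all genes. The sign of the ratio was positive for 41 genes under each of the 4 scalings tried and negative for 6, and for the other 21 it depended on the scaling. A change of scaling moves every gene by the same amount. The median of all genes was 0.48 as deposited and -0.24 under upper-quartile scaling.

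**Figure D1:**
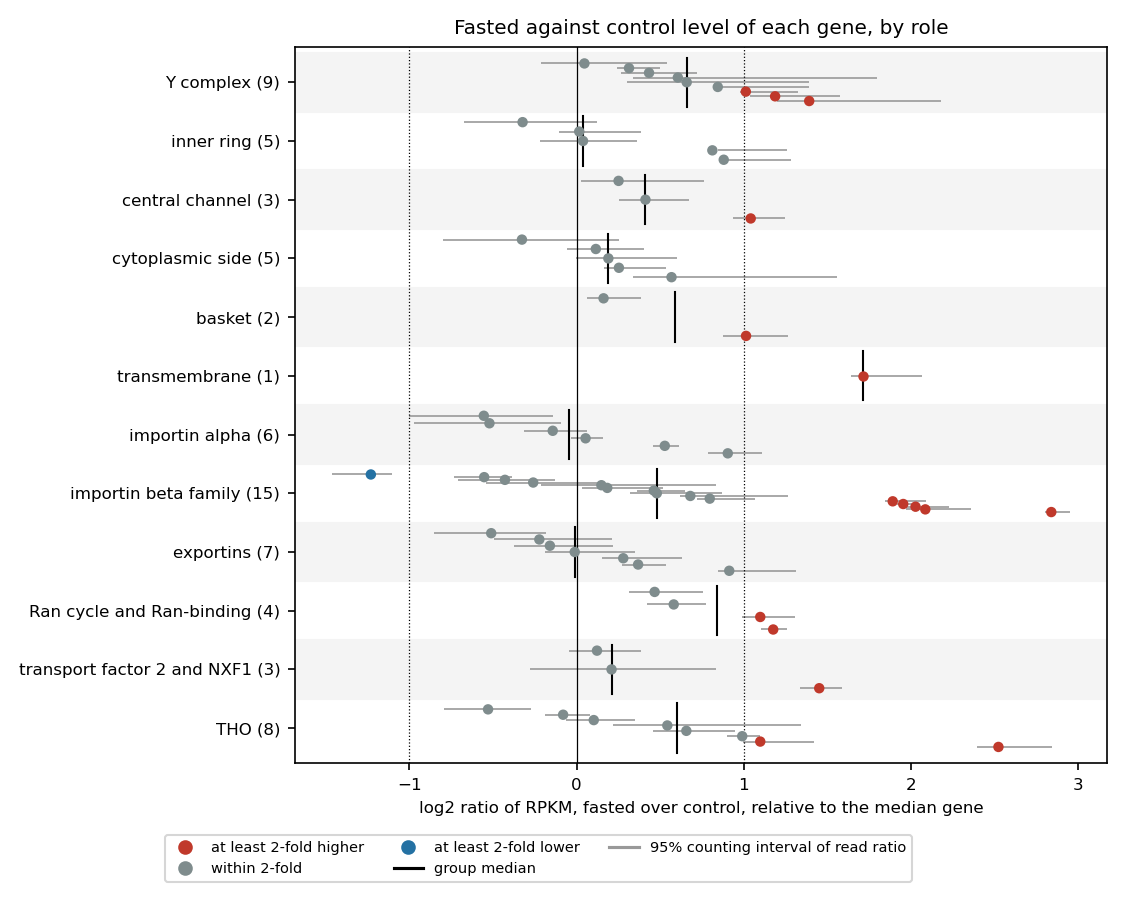
Log2 ratio of RPKM of the 68 measured transport genes (x axis, relative to the median gene) in rows by role, with the number of genes in brackets. Points are genes, coloured by the 2-fold call, black bars are group medians and grey lines are 95% counting intervals of the read ratio. The read ratio carries no pseudocount but is centred on the same 0.48, so its interval can sit to the right of the point for a low gene. The importin beta family spreads from -1.23 to 2.84 and no exportin or importin alpha passes 2-fold by this centred RPKM ratio. Of all genes 16.1% pass it upward and 16.6% downward.

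The genes took 29107 reads, or 0.106% of the control library (95% Wilson interval 0.105 to 0.107%), and 89816 reads, or 0.338% of the fasted library (0.336 to 0.340%). The reads carry no molecular identifiers and so are not independent molecules; this and every interval below cover counting error only. Importin-7 and importin-5 alone took 18.0% of the control reads of the group and 38.9% of its fasted reads. Without these genes the share of the library was 0.0868% (control) and 0.206% (fasted). Unlike the ratios, these shares are not centred, and the median gene was itself 1.40-fold higher in the fasted library as deposited. Depth per gene was uneven: among the 68, the control library held from 23 reads (Nup43) to 3660 (importin-7), with a median of 247, and the fasted library from 64 to 19321, with a median of 492. The 95% exact interval of the read ratio was centred on the RPKM median of 0.48. It lay above that median for 43 genes, below it for 7 and across it for 18, and wholly past 2-fold for 12 of the 17 called genes. Such intervals were not computed for all genes, so these counts have no background beside them. Read ratios centred on their own median are slightly lower: Nup50 was then at 0.997, against 1.07 here. These counts therefore depend on the centring where a bound is near a limit, as for Nup153 (lower bound 0.06), importin alpha-6 (upper bound 0.06) and seh1 (lower bound 1.04).

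**Figure D2:**
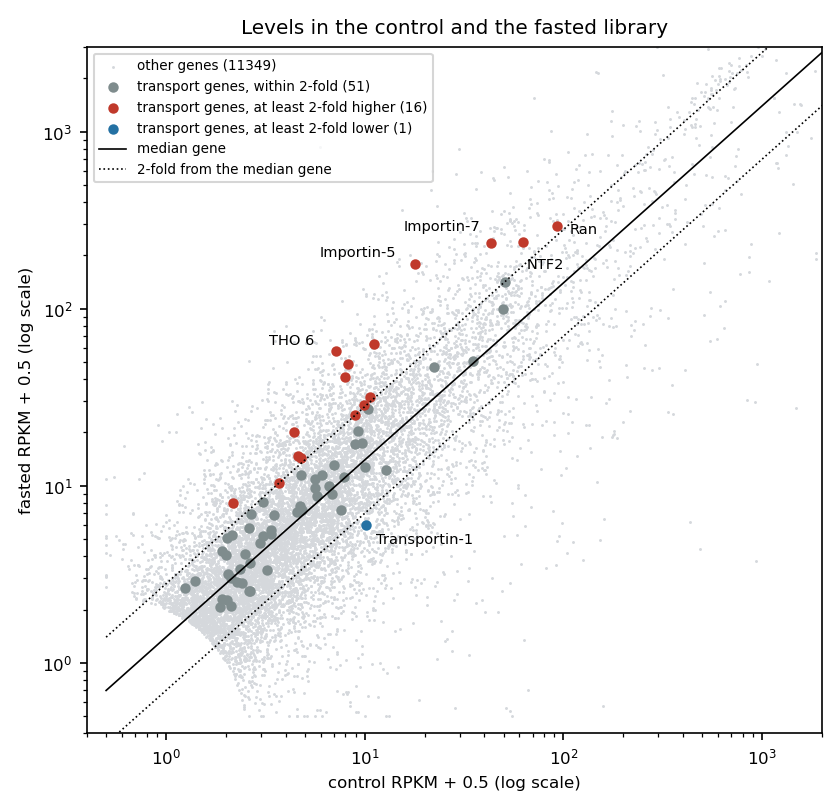
Fasted against control RPKM, each with 0.5 added and on log axes, for 68 transport genes (large points, coloured by the 2-fold call) and 11349 other genes that passed the filter (grey). The solid line is the median gene and the dotted lines are 2-fold from it. Of the 13 transport genes that averaged 20 RPKM or more, 9 lie above the upper dotted line, where 32.6% of all genes at that level do. That average includes the fasted value, so a gene can reach it through its fasted level.

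Called genes were frequent among the more abundant members. Of the 40 with a mean of at least 5 RPKM, 15 were called higher (37.5%), where 24.2% of all genes at that level were. When only genes of that level entered and the ratios were centred on their own median, 8 of the 40 were, against 17.7% of all. Of the 13 with a mean of at least 20 RPKM, 9 were (69.2%), where 32.6% of all genes at that level were. The mean includes the fasted value, so a gene can reach either level through that value. Of these 9, only Ran, importin-7 and nuclear transport factor 2 (gene19457) were at 20 RPKM or more in the control. Shares by control level were not computed. Across the 68 genes, mean RPKM and ratio had a Spearman correlation of 0.58, and across all 11417 genes one of 0.26. These are descriptions across genes, which are not independent, and the mean includes the fasted value that also enters the ratio. With the control RPKM alone the correlation over the 68 was 0.33.

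The importin beta family, the carriers that bind cargo directly or through an adaptor, held the widest differences of the group: 5 of its 15 genes were called higher and 1 lower, with a median of 0.48, and the same counts were found under upper-quartile scaling. The 5 are 33.3% of the family, against 16.1% of all genes. Importin-5, known in other species as an import receptor for ribosomal proteins, was at 17.4 RPKM (control) and 178.9 RPKM (fasted). Its ratio of 2.84 (read interval 2.80 to 2.95, from 1573 and 15586 reads) was exceeded by 91 of the 11417 genes. The gene, gene3074, lies at 838968 to 846693 on the plus strand of scaffold NW_011322486.1. Importin-7 (gene396), a carrier of ribosomal proteins and of histone H1, was the most abundant member of the family in both libraries, at 42.6 and 232.8 RPKM, a ratio of 1.95 (1.92 to 2.02). Importin-9 (gene17651), which carries histones and ribosomal proteins among other cargoes, was at 7.42 and 40.6 RPKM, a ratio of 1.89 (1.84 to 2.09). These 3 carriers and both genes named transportin-3, the carrier of serine/arginine-rich splicing factors, make up the 5 called higher. The transportin-3 genes were at 7.70 and 48.1 RPKM (gene19481, ratio 2.09, 1.97 to 2.36) and at 10.6 and 62.9 RPKM (gene22190, ratio 2.03, 1.94 to 2.23). They lie on different scaffolds with coding lengths of 1203 and 1614 bases, and whether they are copies or parts of a single gene was not tested.

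Transportin-1, which carries RNA-binding proteins of the hnRNP class into the nucleus, was the only member called lower. Its level was 9.61 RPKM in the control and 5.52 RPKM in fasted muscle, a ratio of -1.23 (-1.46 to -1.10, from 708 and 393 reads). As deposited the ratio was -0.75, short of 2-fold. It is gene7231, at 229694 to 247489 on the plus strand of scaffold NW_011322610.1. Both genes of its near relative transportin-2 also lay below the median gene, within 2-fold, at 2.72 and 2.84 RPKM (gene12238, ratio -0.43) and 1.91 and 2.31 RPKM (gene18306, ratio -0.26). As deposited, both transportin-2 genes were slightly above 0. The fold change relative to the median gene was thus 4.24 and 4.08 for the transportin-3 genes and 0.426 for transportin-1.

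The rest of the family was within 2-fold. Importin beta-1 (gene22618), the partner of the importin alpha adaptors in classical import, was at 8.41 and 16.7 RPKM, a ratio of 0.46 (0.36 to 0.65). Importin-4, a histone carrier, was at 4.26 and 11.05 RPKM, a ratio of 0.80. The genes named importin-8, related to importin-7, were far lower in level than importin-7, at 2.99 and 6.30 RPKM (gene16803, ratio 0.48) and 1.56 and 2.68 RPKM (gene17002, ratio 0.15). Importin-11 was at 2.87 and 4.84 RPKM, a ratio of 0.18. Importin-13, a carrier that works in both directions, had genes on either side of the median, at 7.14 and 6.77 RPKM (gene11834, ratio -0.55) and at 1.42 and 3.80 RPKM (gene10506, ratio 0.68).

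The importin alpha adaptors, which recognise the classical nuclear localisation signal, showed no call in either direction among the 6 of 8 genes that passed the filter. Of all genes 16.1% were called higher and 16.6% lower, and 6 genes are too few to be set apart from these shares. The median of the adaptors was -0.04. It was 0.44 as deposited and -0.28 under upper-quartile scaling, where that of all genes was 0.48 and -0.24. As deposited 2 of the 6 were at least 2-fold higher, against a background of 29.7%. The most abundant were importin alpha-4 (gene15382), at 49.0 RPKM (control) and 99.2 RPKM (fasted) (ratio 0.53, 0.46 to 0.61), and importin alpha-3 (gene9332), at 34.6 and 50.4 RPKM (ratio 0.05, -0.04 to 0.16). The highest ratio was that of importin alpha-7 (gene5659), at 9.91 and 26.7 RPKM, a ratio of 0.90 (0.79 to 1.11). Importin alpha-6 was close to the median gene, at 9.54 and 12.2 RPKM. The lowest was importin alpha-5 (gene2005), at 2.16 and 2.03 RPKM, a ratio of -0.56, next to importin alpha-1 (gene17597) at 2.11 and 2.05 RPKM, a ratio of -0.52. Their counting intervals run from -1.003 to -0.14 and from -0.97 to -0.09. The further genes named importin alpha-5 and importin alpha-1 did not pass the filter, the former listed at 0 RPKM in both libraries and the latter at 0.277 and 0.383 RPKM.

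The exportins likewise had no call among 7 of 8 genes that passed the filter, where 16.1% of all genes were called higher and 16.6% lower. Their median was -0.01. It was 0.47 as deposited, 0.01 when libraries were scaled without the 20 most abundant genes and -0.25 under upper-quartile scaling. In the same order, the median of all genes was 0.48, 0.02 and -0.24. Exportin-T, the carrier of transfer RNA, had the highest ratio, 0.91 (0.85 to 1.31), from 2.59 RPKM (control) and 7.63 RPKM (fasted). As deposited exportin-T, at 1.40, was the 1 of the 7 exportins at least 2-fold higher, against a background of 29.7%. Exportin-2, which returns importin alpha to the cytoplasm, was the most abundant of them at 9.15 and 16.9 RPKM, a ratio of 0.37 (0.27 to 0.53). Exportin-1, the receptor of leucine-rich export signals, was at 2.58 and 4.72 RPKM (gene10410, ratio 0.28) and 1.42 and 1.80 RPKM (gene3573, ratio -0.22). Exportin-7 and exportin-6 lay at -0.01 and -0.16. Exportin-4 had the lowest ratio, -0.51 (-0.86 to -0.18), at 1.63 and 1.59 RPKM. Exportin-5, the carrier of microRNA precursors, was filtered at 0.437 and 0.534 RPKM.

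All 4 genes of the Ran cycle and Ran-binding group had a ratio above 0 under each scaling, with a median of 0.84. Of the 4, 2 were called higher, where 16.1% of all genes were, and 0 under upper-quartile scaling, with Ran at 0.94 and Ran-binding protein 3 at 0.86. Ran itself (gene21449), the GTPase whose bound nucleotide sets the direction of transport, was the most abundant of the 72 genes in both libraries, at 92.5 and 293.1 RPKM, a ratio of 1.18 (1.10 to 1.26). Ran-binding protein 3 (gene15593), a cofactor of exportin-1, was at 10.1 and 31.2 RPKM, a ratio of 1.10 (0.99 to 1.31). The Ran-specific GTPase-activating protein (gene574), also called RanBP1, which helps Ran hydrolyse GTP, was at 21.9 and 46.4 RPKM, a ratio of 0.58. Ran-binding protein 9, a scaffold protein not known as a transport factor, was at 5.15 and 10.4 RPKM, a ratio of 0.47. Nuclear transport factor 2, which carries Ran back into the nucleus, had a highly expressed gene (gene19457) at 62.1 and 238.5 RPKM, a ratio of 1.45 (1.33 to 1.59). The other gene of that name (gene3693) was at 4.25 and 7.18 RPKM, a ratio of 0.21 (-0.28 to 0.83).

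**Figure D3:**
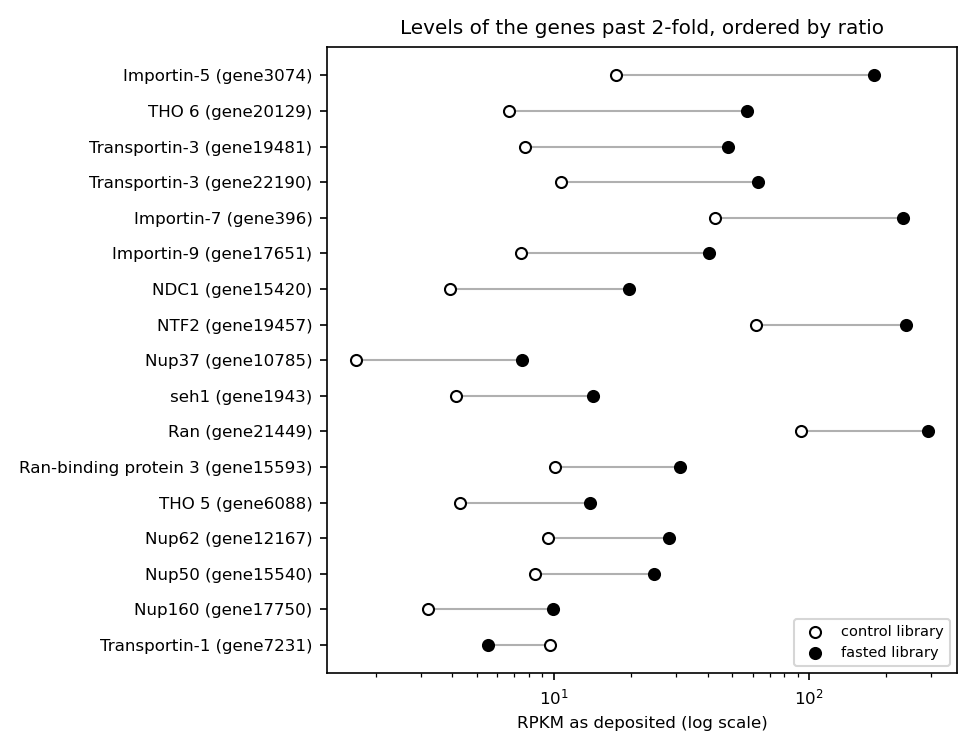
RPKM as deposited (log axis) in the control library (open points) and the fasted library (filled points) of the 17 transport genes past 2-fold, ordered by ratio. Ran has the highest level in both libraries, at 92.5 and 293.1 RPKM, importin-5 the longest line, and transportin-1 is the only gene with its fasted point on the left.

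The pore proteins ranged from -0.33 to 1.71, a narrower span than the -1.23 to 2.84 of the importin beta family. Of 25 measured genes of 26, 23 had a ratio above 0 (92.0%), and the median was 0.43. Above 0 were 17 under upper-quartile scaling, which puts the median of all genes at -0.24. With median centring 6 of the 25 were called higher (24.0%, against 16.1% of all genes) and 0 lower. Under upper-quartile scaling 2 of the 25 were called higher, a share below the 11.7% of all genes. The Y complex, the outer scaffold of the pore, had all 9 genes above 0, or 8 under upper-quartile scaling, and a median of 0.66. Its called genes were Nup37 (gene10785), at 1.67 and 7.46 RPKM (ratio 1.39, 1.20 to 2.18, from 45 and 194 reads), seh1 (gene1943), at 4.14 and 14.3 RPKM (ratio 1.19, 1.04 to 1.57), and Nup160 (gene17750), at 3.20 and 9.93 RPKM (ratio 1.01, 0.98 to 1.32). Seh1 also serves in a complex on the lysosome that signals amino acid supply. Nup133 followed at 1.52 and 4.58 RPKM, a ratio of 0.84. The genes named Nup107 were at 5.62 and 11.1 RPKM (gene11537, ratio 0.43) and 2.13 and 5.30 RPKM (gene15657, ratio 0.66). Nup98-Nup96, a precursor cut into a channel protein and a Y complex protein, was at 5.11 and 9.24 RPKM, a ratio of 0.31, and Nup85 had the lowest ratio of the complex, 0.05, at 1.85 and 2.90 RPKM.

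The single measured transmembrane nucleoporin, NDC1 (gene15420), which anchors the pore in the envelope, had the highest ratio of the pore proteins, 1.71 (1.64 to 2.07), at 3.92 and 19.7 RPKM. The other, Nup210, was filtered at 0.341 and 0.712 RPKM. The inner ring had no call among 5 genes, where 16.1% of all genes were called higher and 16.6% lower. Its median was 0.04, or -0.20 under upper-quartile scaling, where that of all genes was -0.24. Within the ring the ratios parted. Nup155 was at 2.18 and 6.39 RPKM (ratio 0.88, 0.86 to 1.28) and Nup205 at 1.65 and 4.77 RPKM (ratio 0.81, 0.85 to 1.26). NUP53, the most abundant, was at 7.34 and 10.8 RPKM (ratio 0.04). NUP188 lay at 0.02, and Nup93, the linker of the ring, at -0.32 (-0.67 to 0.12) from 1.52 and 1.76 RPKM. For Nup205 the interval lies above the ratio itself. The interval is made from reads without the pseudocount but is centred on 0.48, the median of ratios that hold the pseudocount.

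In the central channel, Nup62 (gene12167, named nuclear pore glycoprotein p62) was called higher, at 9.46 and 28.2 RPKM, a ratio of 1.04 (0.93 to 1.25). Its partners p54, at 6.55 and 12.6 RPKM, and p58/p45, at 1.99 and 3.64 RPKM, had ratios of 0.41 and 0.25. In the nuclear basket, Nup50 (gene15540), which aids the release of importin cargo, was at 8.41 and 24.6 RPKM, a ratio of 1.01 (0.88 to 1.26), and Nup153 at 4.05 and 6.61 RPKM, a ratio of 0.16. On the cytoplasmic side none of 5 genes was called, where 16.1% of all genes were called higher and 16.6% lower. The median of that side was 0.19, or -0.05 under upper-quartile scaling, where that of all genes was -0.24. The highest ratio there was that of nucleoporin-like protein 2, 0.57, at 0.900 and 2.40 RPKM. GLE1, which activates the helicase that strips export factors from messenger RNA, was the most abundant of that side, at 4.34 and 6.82 RPKM, a ratio of 0.11. The genes named Nup214 were at 2.88 and 5.13 RPKM (gene20047, ratio 0.25) and 1.37 and 1.58 RPKM (gene20048, ratio -0.33, -0.80 to 0.25). They lie 1860 bases apart on the same strand of scaffold NW_011323773.1.

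For messenger RNA export, the receptor NXF1 (gene10079) was near the median gene, at 5.25 and 8.25 RPKM, a ratio of 0.12 (-0.05 to 0.39). Of 8 genes of the THO group 2 were called higher, where 16.1% of all genes were, with a median of 0.60. Under upper-quartile scaling 1 was, with a median of 0.36, since subunit 5 was then at 0.86. THO complex subunit 6 (gene20129) had the second largest ratio of all 72 genes, 2.52 (2.39 to 2.84), at 6.66 and 57.0 RPKM. It lies at 103636 to 106873 on the minus strand of scaffold NW_011323790.1. Subunit 5 (gene6088) was at 4.28 and 13.8 RPKM, a ratio of 1.10 (0.995 to 1.42). The other subunits were not alike: subunit 7 was at 8.79 and 19.95 RPKM (ratio 0.66), subunit 3 had a ratio of 0.54 from 40 and 92 reads, subunit 1 was at 6.12 and 9.43 RPKM (ratio 0.10) and subunit 2, the scaffold of the complex, was at 6.33 and 8.53 RPKM (ratio -0.08). Subunit 4 is the adaptor ALYREF, which hands messenger RNA to NXF1. Its gene13800 was the most abundant of the group at 50.2 and 140.2 RPKM, a ratio of 0.99 (0.90 to 1.10), just inside 2-fold. The gene named subunit 4-A (gene5311) was at 12.3 and 11.8 RPKM, a ratio of -0.53 (-0.79 to -0.27).

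There were 10 protein names carried by 2 genes each, and 8 of these pairs had both genes measured. The read intervals of the genes did not overlap for 2 of these 8 pairs. The share over all genes that share a name was not computed. For importin-13 the read ratio was -0.56 (-0.73 to -0.38) for gene11834 and 0.94 (0.62 to 1.26) for gene10506. For nuclear transport factor 2 it was 1.46 (1.33 to 1.59) for gene19457 and 0.27 (-0.28 to 0.83) for gene3693. Reads of near-identical copies could be split by the authors' counting in ways that the sources used here do not state, so values of such pairs are uncertain. No member overlapped another gene model.

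**Figure D4:**
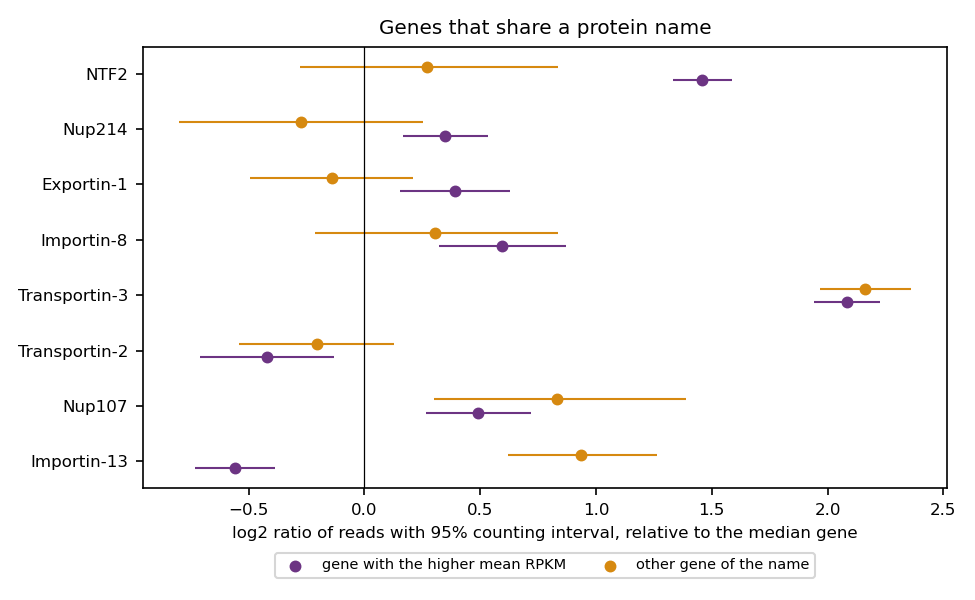
Log2 ratio of reads, fasted over control and centred on the median RPKM ratio of 0.48, with 95% exact counting intervals (lines), for the 8 protein names whose 2 genes were both measured. Purple marks the gene with the higher mean RPKM. The intervals of importin-13 and of nuclear transport factor 2 (NTF2) do not overlap, and those of transportin-3 lie close together above 1.9.

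The deposited lists of splicing events give a further readout from the same libraries, the FPKM (fragments per kilobase, scaled to library size) of the assembled transcripts that carry a given last or first exon. Last-exon values were found for 60 of the 68 genes, and their ratio, centred and computed in the same way, correlated with the RPKM ratio at a Pearson r of 0.92 across these genes, against 0.88 across 9437 genes. The sign was shared by 54 of the 60. By that readout 16 of the 60 were at least 2-fold higher, against a background of 18.5%, and 2 were at least 2-fold lower, NUP53 and importin alpha-5 (gene2005). The share of all genes at least 2-fold lower by that readout was not computed, so the 2 have no background beside them. All 16 genes called on RPKM that had a value kept their sign after centring and 12 of them passed 2-fold again. Nup62 had no value. Importin-5 had last-exon FPKM of 12.2 and 148.8, a ratio of 3.01. First-exon values gave 57 genes, r of 0.90, 52 shared signs and 11 of 16 called genes past 2-fold. For neither exon was the share passing again computed over all genes called on RPKM. Where a gene has a single assembled transcript, both exons carry the same value, so these counts are not independent of each other.

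**Figure D5:**
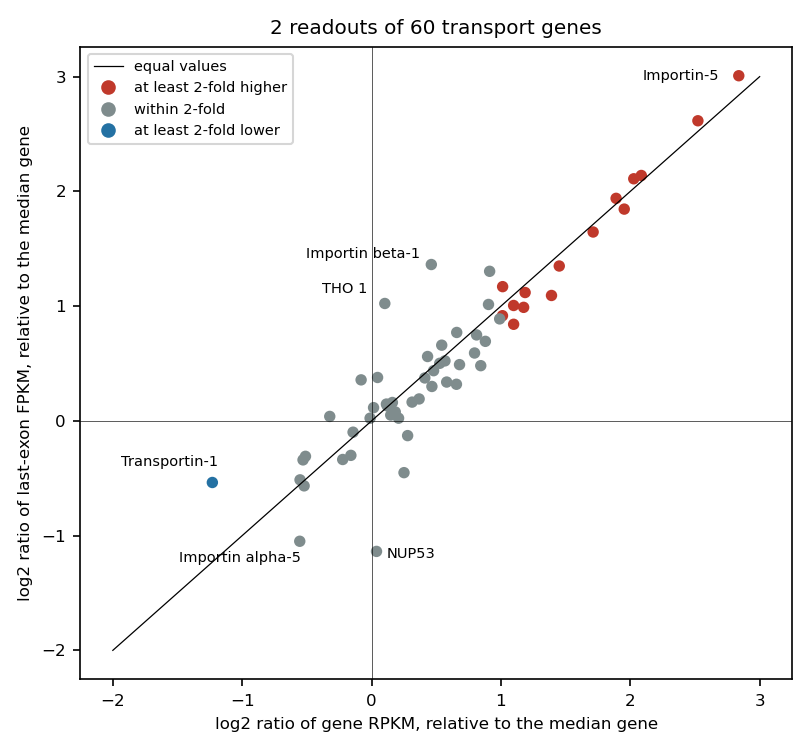
Log2 ratio of last-exon FPKM (y axis) against that of gene RPKM (x axis), each relative to its median gene, for 60 transport genes coloured by the 2-fold call on RPKM. The line marks equal values. Importin-5 is highest on both axes, and transportin-1, THO 1 (subunit 1), importin beta-1 and NUP53 lie off the line.

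Some genes differed between these readouts. Transportin-1 had last-exon FPKM of 8.38 and 8.45, a ratio of -0.54. Its levels as deposited were thus nearly equal. It kept its direction only relative to the median gene, and not its call. Importin beta-1 was past 2-fold there, at 3.38 and 14.1 FPKM and a ratio of 1.36, and so was THO complex subunit 1, at 5.54 and 17.4 FPKM and a ratio of 1.02, against 0.46 and 0.10 from RPKM. Exportin-T and importin alpha-7, within 2-fold by RPKM, also passed it by last exon, at ratios of 1.30 and 1.01. By first exon they were at 2.10 and 1.01. NUP53 turned from 0.04 to -1.14, at 5.86 and 3.72 FPKM, although its first-exon ratio was 0.43. Importin alpha-5 (gene2005), within 2-fold by RPKM at -0.56, was at 2.24 and 1.44 FPKM by its last exon, a ratio of -1.05, and at -0.62 by its first exon. The event lists carry no read counts, so their precision is unknown.

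The same lists hold 11 exon-skipping sites in 9 of the genes, 7 of them listed in both libraries. The share of all skipping sites listed in both was not computed. Not all of the 7 differed: the importin-13 exon was in 100% of the FPKM in both libraries, and the NDC1 exon in 0% in both. For Ran, an exon of 58 bases at 32954 to 33011 on the plus strand of scaffold NW_011324081.1 was in forms with 45.9 FPKM and absent from forms with 12.2 FPKM in control muscle, so 79.0% of the FPKM included it. In the fasted library the forms with it were listed at 0 and those without it at 169.7 FPKM. Its event type is written with an X prefix that the sources used here do not explain. For Ran-binding protein 3, exons of 72 bases (266965 to 267036) and 93 bases (269572 to 269664) on scaffold NW_011323173.1 were in 100% of the control FPKM and in 76.4% and 75.5% of the fasted FPKM. Both lengths are multiples of 3, and that of the Ran exon is not. The length implied for the Ran gene model, 709 bases, is not a multiple of 3 either. Which Ran form keeps the reading frame was not tested.

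Other genes of the pathway that the naming rule leaves out were followed on lists from which unrelated names were taken out after the files were seen. Of 11 pore and Ran-cycle partners 3 were called higher (27.3%, against 16.1% of all genes) and 0 lower, with a median of 0.57. These were Aladin (gene4634), which binds NDC1, at 2.19 and 17.6 RPKM (ratio 2.27), SEC13 (gene16097), a Y complex protein that also coats secretory vesicles, at 18.6 and 72.3 RPKM (ratio 1.45), and a gene named Ran GTPase-activating protein 1 (gene16169), at 4.90 and 28.5 RPKM (ratio 1.94). The other gene of that name (gene3907) was at 1.46 and 0.964 RPKM, a ratio of -0.90. Of the 14 measured mRNA export partners of 15, 3 were called higher (21.4%, against 16.1% of all genes) and 0 lower, with a median of 0.47. The highest ratio was that of the helicase DDX19A (gene213), at 19.7 and 81.8 RPKM (ratio 1.54). Of the 28 measured nuclear envelope genes of 37, 1 was called higher (3.57%, against 16.1% of all genes) and 4 lower (14.3%, near the 16.6% of all genes). Their median was -0.46, which was 0.02 as deposited. The 4 called lower were gene14119 and gene14124, both named nesprin-2 and on the same scaffold, gene15201 (nesprin-1) and gene16261 (lamin-A). The list holds neighbouring models named nesprin-2, and whether these are parts of a single gene was not tested.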

How the data were processed

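Total RNA of muscle was made into Illumina TruSeq libraries, per the labels' protocols, and their treatment labels give the groups. HTSeq, SAMtools 0.1.19, TopHat and TopHat2 2.0.12 are listed, without roles, per the submitters' processing notes. Genome build: not given in the sources used here; likewise the annotation release and strand setting. Scaffold names and positions are the files' own. The authors deposited RPKM per gene with protein names, RPM per gene in a comparison table of 16883 genes, and lists of splicing events with FPKM, per the file headers. The authors' fold changes and p-values were not used. The RPKM gene lengths implied by the deposited values are multiples of 3 for 92.6% of genes, so they are called coding lengths.

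Whole reads were recovered from the deposited RPM: 100% of values were whole within 0.1 read. Depth was 27519918 and 26593839 reads, so 1 read equals 0.0363 and 0.0376 RPM. Exact Clopper-Pearson intervals (95%) of the read ratio were taken given the summed reads. They hold no pseudocount but were centred on the 0.48 of the RPKM ratios, which do, and not on the median of the read ratios. Shares carry 95% Wilson intervals. A single library per group gives no estimate of dispersion, so there is no count test and no p-value. The pseudocount of 0.5 RPKM pulls low genes toward equal deposited levels, which is -0.48 after centring. It thus lowers the ratio of low genes above the median gene. Those between it and -0.48 are set further below: exportin-6 was at -0.16, against a read ratio of -0.08. Ratios were centred because the median of 0.48 lay over 0.1 from 0. Event FPKM were joined to a gene through assembled genes that touch exactly 1 gene model; each library's first-exon levels correlated with its own RPKM at 0.96 and with the other library's at 0.80 and 0.81 (Pearson, log scale). Named genes are, per role, the most abundant, the highest and lowest ratio, every call with at least 5 RPKM in the higher library, and genes sharing their names; most others are given as well. The members and lists were chosen with earlier results of these data known. Alternatives covered the pseudocount, filter, scaling, size of a call, reads in place of RPKM, and the choice of members. Steps were tested on simulated counts. Python 3.11.15, pandas 2.3.3 and scipy 1.17.1 were used.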

Additional observations from a re-analysis of the deposited data

How the results depend on the processing

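The count of 16 genes called higher became 8 with a filter at a mean of 5 RPKM, 31 as deposited, 9 under upper-quartile scaling, 27 at a call of 1.5-fold and 7 at 3-fold. At 1.5-fold that was 39.7% of the genes, against 27.5% of all genes, and at 3-fold 10.3%, against 7.40%. As deposited it was 45.6%, against 29.7%. The count of 1 called lower became 0 without a filter, as deposited and at 3-fold. The median of 0.45 became 0.72 without a filter, 0.93 as deposited and 0.21 under upper-quartile scaling. That of all genes was 0 without a filter, 0.48 as deposited and -0.24 under upper-quartile scaling. Other settings left the count higher between 15 and 23. The 23, without a filter, were 32.4% of the genes, against 15.8% of all genes. The background moved as well: under upper-quartile scaling 13.2% of the genes and 11.7% of all genes were called higher, and at a mean of 5 RPKM 8 of 40 genes were, against 17.7% of all, closer together than with the settings of the report. Of the 17 calls, 9 were kept in all settings of scaling, filter, pseudocount and reads that gave a value, and 8 were lost in at least 1. Ran, Ran-binding protein 3, Nup160, Nup50, Nup62, seh1 and THO complex subunit 5 lost theirs under upper-quartile scaling (0.77 to 0.95) and with the filter at 5 RPKM, which moves the median gene. Transportin-1 lost its call as deposited (-0.75) and without a filter (-0.92). None of the 17 called genes changed sign in these settings, whereas medians near 0 did: under upper-quartile scaling that of the inner ring turned from 0.04 to -0.20, that of the cytoplasmic side from 0.19 to -0.05, and that of nuclear transport factor 2 and NXF1 from 0.21 to -0.03, and as deposited those of the importin alpha group and the exportins turned positive. Between the scalings every gene moves by the same amount, so these turns of sign reflect where the zero line lies for all genes. No paired analysis was possible because there is 1 library per group. Depth limits the lowest genes: Nup43 rests on 23 and 64 reads, with a read interval of 0.34 to 1.80.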

Other observations

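Retained introns were listed at 10 sites in 8 of the genes, of which 1 was in both libraries, 5 in the control list alone and 4 in the fasted list alone. The share of all retained-intron sites listed in both libraries was not computed, so these counts describe the lists only. The shared site, an intron of 99 bases in Nup85, was in 50.4% of the control FPKM and 46.3% of the fasted FPKM. In nucleoporin p58/p45 an exon of 84 bases was in 80.3% (control) and 100% (fasted) of the FPKM listed for that exon alone. An exon of 99 bases was in 100% and 0% of the FPKM listed for it, from forms listed below 1.30 FPKM in either library. A further entry spans both exons, with forms that hold them at 1.2975 and 0.876 FPKM. Forms that skip them together were at 0 and 0.885 FPKM, so 100% and 49.8% of that entry held them. The single-exon shares thus leave out some forms. A site that is missing from a list may be missing for want of coverage, which was not tested.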
